A study of Mus musculus with 2 samples.

Results

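The genes described here are the receptor, kinase and transcription factor through which leukaemia inhibitory factor (LIF) acts on mouse embryonic stem cells, together with the feedback and target genes Socs2, Socs3, Bcl3 and Pim1. They were taken by name, as the probe sets whose array annotation gives 1 of the 8 gene symbols and no other. All 8 genes were measured, by 12 probe sets, out of 10313 genes measured by 15273 probe sets with a single gene name. The study set cells overexpressing the long noncoding RNA lincU against control cells, on 1 Affymetrix 3' expression array each. Both cultures were of the embryonic stem cell line 46C, a line with green fluorescent protein inserted at Sox1 as a reporter, and both grew on feeder cells in medium with 15% serum and 1000 U/ml of LIF. Feeder cells were taken away before harvest. LIF was thus present in both groups, and no culture without LIF was compared. How lincU was overexpressed, and whether the cells were a clone or a pool, was not given in the sources used here.

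LIF binds a receptor made of the LIF receptor chain, encoded by Lifr, and the shared chain gp130, encoded by Il6st. The receptor-bound kinase JAK1 then phosphorylates STAT3, which enters the nucleus and switches on genes that hold mouse embryonic stem cells in the undifferentiated state. Among the genes that STAT3 induces are suppressors of cytokine signalling, which dampen the receptor and close a feedback loop. The same receptor also feeds the RAS-ERK and PI3K-AKT pathways.

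STAT proteins bind DNA at the letters TTCNNNGAA, which read the same on both strands. The 250 bases before the RefSeq starts (GRCm38.p6) of Socs3, Bcl3 and Pim1 are shown because these are the feedback and target genes of the set for which the RefSeq table held a window, so that the element can be read beside their values below. Capitals mark a match to TTCNNNGAA. The Socs3 window is chr11:117969367-117969616 on the minus strand, the Bcl3 window chr7:19822756-19823005 on the minus strand and the Pim1 window chr17:29490535-29490784 on the plus strand.
Socs3: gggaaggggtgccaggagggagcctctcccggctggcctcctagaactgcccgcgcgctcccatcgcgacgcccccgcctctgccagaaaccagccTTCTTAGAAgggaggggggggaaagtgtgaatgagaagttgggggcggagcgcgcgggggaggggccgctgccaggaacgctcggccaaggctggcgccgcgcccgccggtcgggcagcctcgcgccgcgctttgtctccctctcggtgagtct
Bcl3: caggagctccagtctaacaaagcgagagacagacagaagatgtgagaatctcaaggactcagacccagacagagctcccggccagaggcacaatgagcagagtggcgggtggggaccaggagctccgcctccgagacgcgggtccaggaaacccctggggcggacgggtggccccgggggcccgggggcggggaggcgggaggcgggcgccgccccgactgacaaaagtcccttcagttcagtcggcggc
Pim1: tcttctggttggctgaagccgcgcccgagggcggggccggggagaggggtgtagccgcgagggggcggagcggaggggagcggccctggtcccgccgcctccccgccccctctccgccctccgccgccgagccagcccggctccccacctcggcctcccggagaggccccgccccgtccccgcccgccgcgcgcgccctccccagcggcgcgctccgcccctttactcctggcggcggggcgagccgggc
The Socs3 window held 1 match, TTCTTAGAA, whose first base lies 154 bases before the start. No match lay in the Bcl3 window or in this window of Pim1. The table held 9 such windows for the genes other than Socs2, and the match in Socs3 was the only one among them. Of all 32851 windows in the table, 7.02% held a match. A match describes letters and does not show that STAT3 binds there.

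The deposited values are log2 signals, so a difference of 1 is a 2-fold change. A gene was called bright, and only then counted, where the higher of its signals reached the median of the array it came from, 7.90 for the overexpression array and 7.96 for the control array. Signals under a floor of 5.65 on the overexpression array or 5.73 on the control array were raised to that floor before subtraction. Where a gene had several probe sets, the one of highest mean signal stood for it. Each group had a single array, so nothing below carries a test or a replicate check, and precision is limited by the number of arrays. The only repeat at hand was that of several probe sets of 1 gene on the same arrays. Among the 1732 genes that had more than 1 bright probe set, the SD of the log2 difference within a gene was 0.23, which holds no variation between cultures.

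Embryonic stem cell markers had high signals on both arrays. All 11 measured of 12 were bright, with Pou5f1 at log2 signals of 13.34 in overexpressing and 13.55 in control cells, Sox2 at 13.59 and 13.41, and Nanog at 13.44 and 12.87. Of 18 feeder fibroblast markers 17 were measured and 12 were bright, and none was under the floor on both arrays. Their summed signal was 14.70 in overexpressing and 14.61 in control cells on the log2 scale, from Vim at 13.27 and 13.34 down to Fap at 5.95 and 5.87. The sum gives most weight to the brightest markers, Vim and Fn1, the latter at 13.01 in overexpressing and 12.72 in control cells. How much of their signal came from feeder cells was not tested. Of the leukocyte markers 4 of 5 were measured, and 3 of them were under the floor on both arrays.

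Comparing overexpressing with control cells asks whether the genes of the LIF pathway differ when lincU is raised under constant LIF. In overexpressing cells Socs2 had the largest difference of the 6 bright genes and was 1.84-fold lower. Bcl3 and Pim1 were 1.32-fold and 1.27-fold lower. Socs3, and Jak1 on its brightest probe set, were nearly equal on the arrays, but another bright Jak1 probe set was 1.55-fold lower. The dim receptor genes Lifr and Il6st went the other way, at 1.57-fold and 1.62-fold higher. None of the 6 bright genes reached 2-fold in either direction, against 2.83% of all 5609 bright genes, made up of 1.53% higher and 1.3% lower. At 1.5-fold, 1 of the 6 was counted, as lower, against 11.3% of all bright genes, made up of 6.69% lower and 4.65% higher. The median log2 difference of the 6 was -0.30, with 4 lower and 2 higher, and that of all bright genes was 0.00. Over all 8 genes, dim ones included, the median was -0.09. Without shared and mixed probe sets, which left 4 bright genes, the median was -0.13. Shared and mixed here means a probe set name ending in _a_at, _s_at or _x_at. Whether such a probe set took up signal from another gene was not tested. In RNA from whole cultures, fewer cells of a type and less RNA per cell cannot be told apart.

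**Figure D1:**
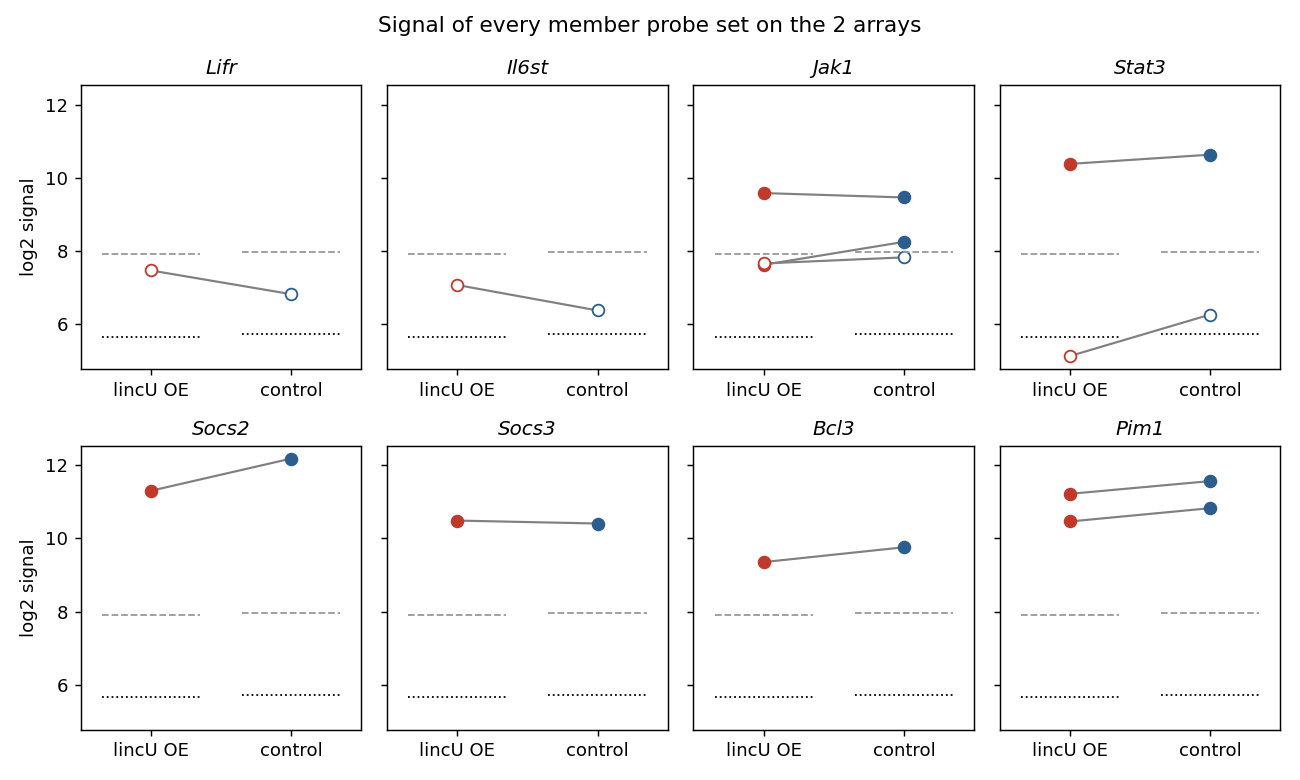
Log2 signal of each of the 12 probe sets on the lincU overexpression array (red, left, marked OE) and the control array (blue, right), 1 line per probe set. Filled points are bright probe sets and open points dim ones; dashed lines show each array's median and dotted lines its floor. The lines of Socs2, Bcl3 and both Pim1 probe sets run upwards to the control array, those of Lifr and Il6st downwards.

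Lifr encodes the chain that gives the receptor its specificity for LIF. Its gene lies on chromosome 15, and its only probe set, 1425107_a_at, had a log2 signal of 7.46 in overexpressing cells, against 6.82 in control cells. Both signals lay between the floor and the median, and the difference was 0.65. The probe set is of a type that can bind several transcripts. Of 1610 probe sets with a mean signal within 0.5 of that of Lifr, 8.45% were higher by at least as much, and the central 80% of them spanned differences from -0.85 to 0.59.

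Il6st encodes gp130, the chain that carries the signal for the whole interleukin-6 family. The gene lies on chromosome 13, and its probe set, 1421239_at, stood at 7.07 in overexpressing cells and 6.37 in control cells, a difference of 0.70, again between floor and median. Of 1573 probe sets of similar signal, 9.35% were higher by at least as much. A higher floor, each array's 40th percentile, raised the control values of both receptor genes. Il6st then stood at -0.0018 and Lifr at 0.40, both bounds set by that floor. As deposited, both receptor chains lay just above the central 80% of probe sets of similar signal, which ended at 0.59 for Lifr and 0.68 for Il6st. Fibroblasts also carry these receptors, and the feeder markers given above had a median difference of 0.01 over their bright members, 7 higher and 5 lower. Single markers ranged from -0.46 for Mmp2 to 0.69 for Pdgfrb among the bright ones, and the dim Pdgfra stood at 1.31, with its control value under the floor. Their part in the result was not tested.

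Jak1 encodes the kinase bound to gp130 that starts the signal, and the 3 probe sets of this chromosome 4 gene did not move together. The brightest of them, 1433805_at, had a signal of 9.58 in overexpressing and 9.46 in control cells, a difference of 0.12. The next, 1433803_at, stood at 7.62 in overexpressing cells and 8.25 in control cells, a difference of -0.63, and reached the brightness limit in control cells only. The remaining, dim probe set, 1433804_at, stood at 7.66 in overexpressing and 7.82 in control cells, a difference of -0.17. Averaged over the 3, Jak1 differed by -0.22, so the direction for this gene depends on the probe set.

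Stat3 encodes the transcription factor at the centre of the pathway. The gene lies on chromosome 11, and its bright probe set, 1426587_a_at, had 10.38 in overexpressing cells, against 10.63 in control cells, a difference of -0.25, and 18.0% of 1507 probe sets of similar signal were lower by at least as much. A dim probe set, 1424272_at, stood at 5.12 in overexpressing cells, under the floor, and at 6.26 in control cells. Its difference of -0.61 is a bound set by the floor, and was -1.13 with no floor and 0 with the higher floor used above. The bright probe set was lower by about the spread between probe sets of a gene. These are levels of RNA, and the phosphorylated form of STAT3, through which the pathway signals, was not measured.

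Socs2 encodes a suppressor of cytokine signalling best known as a brake on growth hormone signalling and as a target of STAT5. The gene lies on chromosome 10. The signal of its probe set, 1418507_s_at, was 11.30 in overexpressing cells, against 12.19 in control cells, both far above the median of their array, and the difference was -0.88. Counted from the most reduced gene, it held rank 117 of 5609 bright genes. Of 1047 probe sets of similar signal 0.669% were lower by at least as much, and the central 80% of them lay between -0.29 and 0.32. The value rests on 1 probe set, of a type that can bind transcripts of several genes. Without probe sets of that and the other mixed types Socs2 was not measured, and no other bright member passed 1.5-fold.

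Socs3 encodes the suppressor that binds gp130 itself and is the classical feedback inhibitor of LIF signalling in these cells. On chromosome 11 like Stat3, and measured by probe set 1416576_at, it stood at 10.49 in overexpressing and 10.41 in control cells, a difference of 0.08, smaller than the spread between probe sets of a gene. Of 1524 probe sets of similar signal 37.5% were higher by at least as much. Of the 2 measured suppressor genes of the set, Socs2 was thus lower on these arrays, at -0.88, and Socs3 nearly equal, at 0.08. Whether that contrast exceeds the variation between cultures cannot be tested with 1 array per group.

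Bcl3 encodes a nuclear protein of the IκB family that works with NF-κB subunits and is induced by LIF in embryonic stem cells. The gene lies on chromosome 7, and its signal, on probe set 1418133_at, was 9.35 in overexpressing cells and 9.76 in control cells, a difference of -0.41, at rank 710 of 5609 from the most reduced. Pim1 encodes a serine/threonine kinase that promotes survival and is a textbook STAT3 target. On chromosome 17, its brighter probe set, 1435458_at, stood at 11.22 in overexpressing and 11.57 in control cells, and the other, 1423006_at, at 10.47 and 10.83. The 2 differences, -0.35 and -0.36, were nearly the same. Of the probe sets of similar signal, 13.6% were lower by at least as much as Bcl3, and 8.99% and 9.77% by at least as much as the Pim1 probe sets. Bcl3 lay inside the central 80% of its group, which began at -0.47, and the Pim1 probe sets lay just outside theirs, which began at -0.32 and -0.35.

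**Figure D2:**
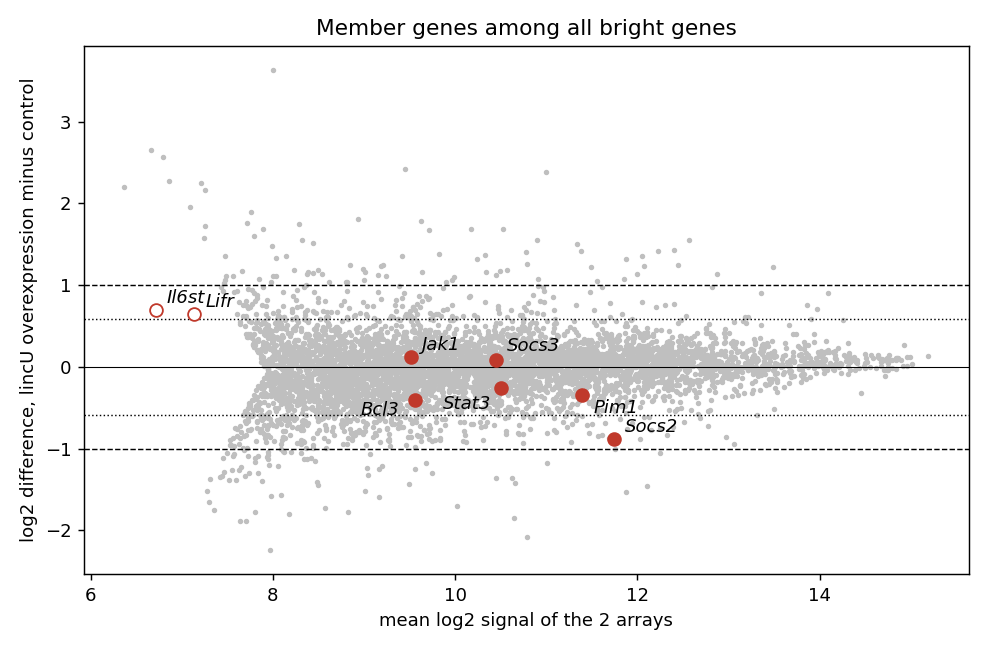
Log2 difference, lincU overexpression minus control, against the mean log2 signal of the arrays, for all 5609 bright genes (grey) and the 8 genes described here (red; open where dim). Dashed lines mark 2-fold and dotted lines 1.5-fold; Socs2, at -0.88, lies between these lines at a signal where few genes do, and Lifr and Il6st lie left of most bright genes.

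Bright genes of chromosome 14 as a whole had a median difference of -0.38 between these arrays, so the members were also set beside their neighbours. None of the 8 genes lies on chromosome 14. On the chromosomes that carry them, the median difference of the bright genes lay between -0.04 for chromosome 17, with Pim1, and 0.01 for chromosome 13, with Il6st. The 10 bright genes nearest to Socs2 had a median of 0.01, and the genes on either side, Cradd and Mrpl42, stood at 0.01 and 0.09. Next to Bcl3 were Nectin2 at 0.33 and Pvr at -0.12, and 8 of its 10 neighbours were lower, with a median of -0.16. Pim1 lies between BC004004 at 0.02 and Rnf8 at -0.14, and its 10 neighbours had a median of -0.04. Socs2 was thus lower than each of the 10 bright genes around it, and the other 5 bright members lay within the range of their neighbours. The dim genes Lifr and Il6st are not read against bright neighbours, whose differences spread less at their higher signals. With the median of its chromosome subtracted, Socs2 stood at -0.86, Bcl3 at -0.38 and Pim1 at -0.31.

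**Figure D3:**
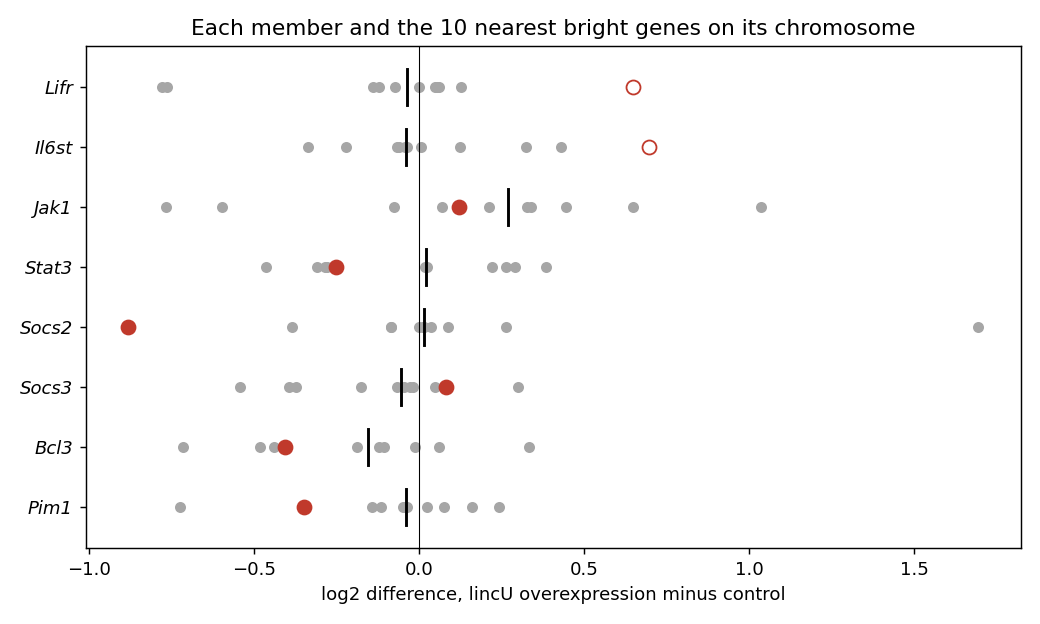
Log2 difference, lincU overexpression minus control, of each member (red; open where dim) and of the 10 nearest bright genes on its chromosome, 5 on each side where available (grey), with their median as a black bar. Socs2 lies left of all its neighbours; the open points of Lifr and Il6st are dim genes set beside bright ones.

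The other genes of the pathway were described in the same way. Among cytokines and receptors of the interleukin-6 family, 7 of 15 were measured and none was bright. Lif itself, chosen after its value was seen, stood at 6.66 in overexpressing and 6.98 in control cells, and Osmr, the receptor chain for oncostatin M, at 7.46 and 7.51. Osmr, Cntfr, Csf3r and Lepr were likewise chosen after their values were seen. Cntfr, the receptor chain for ciliary neurotrophic factor, stood at 7.00 in overexpressing cells and 7.75 in control cells. Csf3r and Lepr, receptor genes of the same family, were higher, at 0.54 and 0.55 with the control array at the floor, so the dim receptor genes went in both directions.

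Of the other JAK and STAT genes 8 of 9 were measured and 3 were bright, with none past 1.5-fold and a median of -0.14. The bright ones were Stat4 at -0.33, Tyk2, a further JAK kinase, at 0.28, and Stat6 at -0.14. Stat5a and Stat5b were dim. They were chosen after their values were seen because their products induce Socs2 in other tissues, and a link to Socs2 was not tested. Stat5a stood at 5.46 in overexpressing cells, under the floor, and 6.73 in control cells, and Stat5b at 5.91 and 6.86. Their floored differences were -1.07 and -0.95. Stat2, also dim and chosen after its value was seen, went the other way, at 6.60 in overexpressing cells and 4.60 in control cells, the control value under the floor. Stat5a and Stat5b are near-identical paralogs, so the probe sets of those genes may share signal.

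Of the other negative regulators 11 of 16 were measured and 7 were bright, with none past 1.5-fold, 4 lower and 3 higher, and a median of -0.19. Among the bright genes the largest differences were in Ptpn11 and Socs5. Ptpn11, which encodes the phosphatase SHP2 that links gp130 to RAS-ERK, stood at -0.42. Socs5 stood at -0.38 on its brightest probe set but 0.25 on the other bright one. Pias2, of the family of protein inhibitors of activated STAT, stood at 0.26. Pias3 and Ptpn2 were chosen after their values were seen. The dim Pias3 stood at 6.61 in overexpressing and 7.78 in control cells, a larger difference of -1.16. Ptpn2 differed by -0.21 on its brightest probe set, and its 3 bright probe sets ranged from -0.21 to 0.45. The median of this group was 0.14 with brightness set at the 75th percentile and 0.16 with probe sets averaged, so its direction depends on the setting.

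Most of the other STAT3 target genes that were bright had lower signals in overexpressing cells. Of 24 genes 20 were measured and 18 were bright, of which 13 were lower and 5 higher, with a median of -0.27, against 49.8% lower among all bright genes. At 1.5-fold 4 were lower and 1 was higher, where 6.69% of all bright genes were lower and 4.65% higher. The median was -0.12 with brightness at the 75th percentile. The count past 1.5-fold was 3 with quantile normalization, a loess trend subtracted or a pseudocount, and 1 with that brightness. Of the 5 genes, Cebpd, Vegfa and Msc were bright only on the array where they were higher. The list was also chosen with earlier results of these data known. The counts by direction and past 1.5-fold and the median therefore describe these genes and support nothing about the list. Pim2, a kinase gene of the same family as Pim1, stood at 9.94 in overexpressing and 11.30 in control cells, a difference of -1.36. Pim3, the remaining gene of that family, chosen after its value was seen, stood at 12.45 and 12.35, a difference of 0.09. The 3 PIM kinase genes were thus lower, lower and nearly equal in overexpressing cells.

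Cebpd, which encodes a transcription factor of the acute-phase response, was 7.42 in overexpressing and 8.49 in control cells, a difference of -1.07. Vegfa, the vascular growth factor gene, differed by -0.66, and the survival gene Bcl2l1 by -0.63. Msc, which encodes the transcription factor musculin, went the other way, at 8.71 in overexpressing and 7.37 in control cells, a difference of 1.34. The pluripotency factors in this list, chosen after their values were seen, did not follow the lower genes: Klf4 differed by 0.28, Tfcp2l1 by 0.33 and Gbx2 by 0.06.

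Of the 25 promoter windows of the STAT3 target list, 8 held TTCNNNGAA, or 32.0%, against 7.02% of all windows. The list was drawn up from genes known to respond to STAT3, so this share describes the choice of genes. The sites of the bright genes among them, Irf1 and Icam1, chosen after their values were seen, are shown, with up to 10 bases on each side and the match in capitals, at chr11:53769914-53769942 and chr9:21015888-21015916, both on the plus strand of GRCm38.p6.
Irf1: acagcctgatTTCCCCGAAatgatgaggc
Icam1: ggcgcgaggtTTCCCGGAAagtggccccg
Irf1, an interferon regulatory factor gene, stood at 9.17 in overexpressing and 9.62 in control cells, a difference of -0.45. Icam1, an adhesion molecule gene, stood at 10.82 in overexpressing and 11.08 in control cells, a difference of -0.25. Among the 12 bright genes with windows but no match, 8 were lower and the median was -0.28. A further 4 bright genes of the list had no window, and 3 of them were lower. Only 2 bright genes held a match, and a window without a match does not show that a gene lacks the element. Whether the element bears on the lower signals was not tested.

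The PI3K-AKT branch of LIF signalling showed no shared direction. Of 10 genes 9 were measured and 8 were bright, with 5 higher, 3 lower and a median of 0.10, which was -0.05 without shared and mixed probe sets and 0.61 with brightness at the 75th percentile. Tbx3, the transcription factor gene of this branch, was higher, at 0.92, as was the AKT coactivator gene Tcl1, at 0.61. Akt1 differed by -1.21 on its brighter probe set, with 8.60 in overexpressing and 9.80 in control cells, and by -0.13 on another bright one. The value for Akt1 therefore depends on the probe set.

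**Figure D4:**
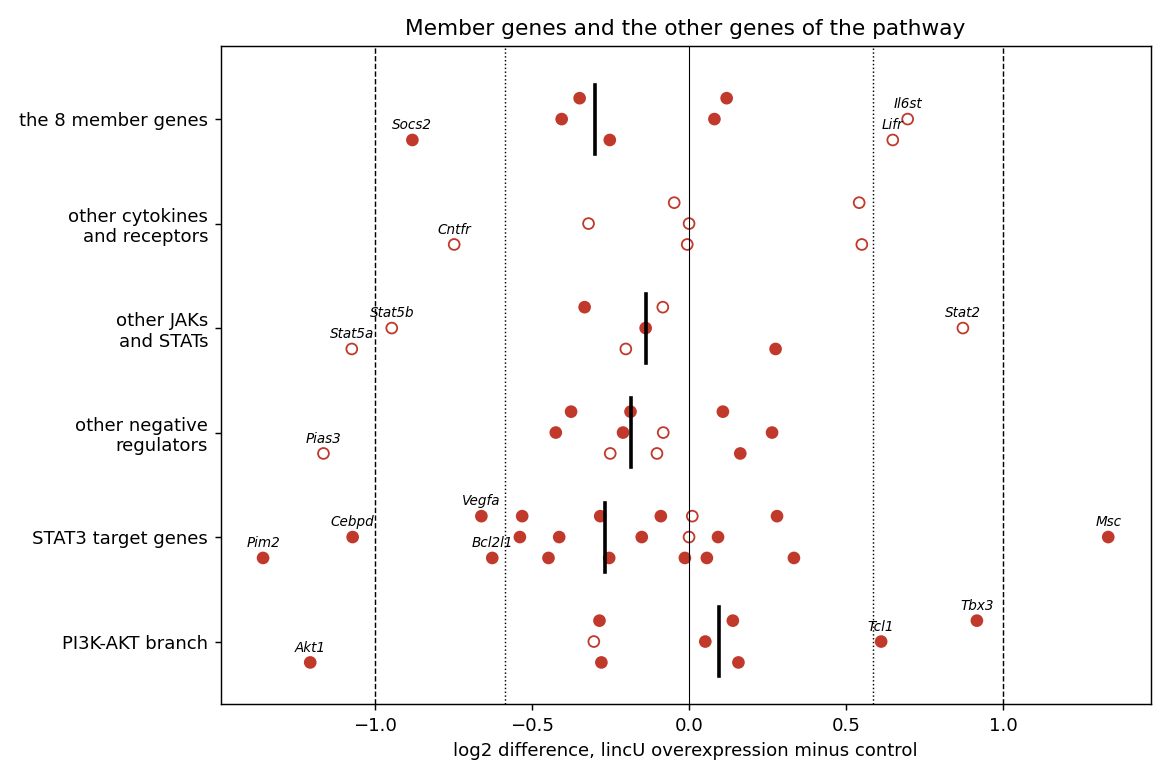
Log2 difference, lincU overexpression minus control, of the 8 genes described here and of the other measured genes of the pathway, by list; filled points are bright genes, open points dim ones, and black bars the median of the bright genes. Dashed lines mark 2-fold and dotted lines 1.5-fold, and genes past 1.5-fold are named. The bars of the members and of the STAT3 target genes lie at -0.30 and -0.27, and that of the PI3K-AKT branch at 0.10.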

How the data were processed

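RNA of control and lincU-overexpressing cells was amplified to biotin-labelled cRNA and hybridised to Affymetrix 3' arrays, per the labels' protocols. As deposited, each probe set has 1 log2 signal on each array; the log2 scale was read from their range. MAS5 and affy are named, without version or role, in the submitters' processing notes, and the scaling target was not given in the sources used here. In all, the table held 16994 probe sets, including 64 controls. Of the rest, 15273 had a single gene name, 501 several and 1156 none. Names came from the platform annotation and were updated by gene ID through RefSeq (GRCm38.p6), where 15252 matched.

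Values were used as deposited, and the floor was each array's 25th percentile over named probe sets. A difference is overexpression minus control, and is 0 where both arrays were under the floor. Probe sets of similar signal were all named probe sets with a mean signal within 0.5. The members, the pathway lists, the marker lists of embryonic stem cells, feeder fibroblasts and leukocytes, and the rules were chosen with earlier results of these data known. Named were all members, the bright list genes past 1.5-fold or otherwise the 3 of largest difference, cell type markers, and the bright genes next to Socs2, Bcl3 and Pim1. Genes named outside that rule, here or in the text, were chosen after their values were seen. No genes of similar pattern are named, since over 2 arrays a pattern is 1 difference. The 2-fold counting rule was run on simulated arrays with planted differences larger than that of any bright member. It gives no check of the 1.5-fold counts or of the smaller differences described here. Python 3.11.15 with pandas 2.3.3, numpy 2.4.6 and statsmodels 0.14.6 was used.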

Additional observations from a re-analysis of the deposited data

How the results depend on the processing

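The results were recomputed under 10 alternative settings and 1 added after seeing the data, the subtraction of chromosome medians. No paired analysis was possible because each group had 1 array. Of 257 recomputed values 236 moved by less than 0.23, the SD within a gene, or, for counts, by no more than 1.5 times. Many of these could not have moved. The brightness settings leave each gene's difference unchanged, a changed floor does not reach signals above it, and averaging leaves genes with 1 probe set as they were. The tally and the ranges that follow are therefore in part fixed by the settings. Socs2 lay between -0.90 and -0.83, Bcl3 between -0.41 and -0.35, the Pim1 gene value between -0.36 and -0.29 and Socs3 between 0.08 and 0.14 wherever they were measured. With the floor at the 40th percentile Il6st stood at -0.0018 and Lifr at 0.40. The control values of both genes were under that floor, so these are bounds. With the floor replaced by a pseudocount Il6st stood at 0.44. Jak1 stood at -0.22 with probe sets averaged, and Stat3 at -0.61, on its dim probe set, when shared and mixed probe sets were left out. That setting dropped Socs2 and Lifr and left 0 members past 1.5-fold, while no brightness rule gave 3, Lifr and Il6st being added. STAT3 target genes past 1.5-fold numbered 5 as reported, 3 with quantile normalization, a loess trend subtracted or a pseudocount, and 1 with brightness at the 75th percentile. The median of the negative regulators was 0.14 at that brightness and 0.16 with probe sets averaged or without shared or mixed types, and averaging put 1 of them past 1.5-fold. The median of the PI3K-AKT branch was 0.61 at the higher brightness and -0.05 without shared or mixed types. The members' median was -0.09 with no brightness rule and -0.13 without those types, and the dim Stat3 probe set stood at 0 with the higher floor. With no brightness rule 1 gene of the cytokine and receptor list, 3 of the JAK and STAT list and 1 of the negative regulators were past 1.5-fold. The share of all genes past 1.5-fold was computed only for the reported setting. The 1.5-fold counts under other settings therefore have no share beside them and are not read as results. At 2-fold the share was 3.67% of all 10313 genes with no brightness rule, against 2.83% of bright genes as reported. The median of the cytokines and receptors had no value as reported, since none was bright. Where no reason is given, the cause was not tested. Dim signals limit what can be said of the receptor genes.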
